A study of Mus musculus with 6 samples.

Results

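The genes described here encode subunits of neuronal potassium channels: the fast Kv3 subunits Kcnc1, Kcnc2 and Kcnc4, the Kv2 subunit Kcnb2, and the silent subunits Kcns1, Kcns2, Kcns3 and Kcng4. All 8 were found by name, 1 row each, among the 31469 rows of the deposited table. They were selected on their TPM in these same knockout and wild-type libraries, so their genotype differences are descriptions, with no test. RNA was sequenced from neurons positive for parvalbumin, taken from the lumbar 4 (L4) dorsal root ganglia of C57BL/6 mice aged 21 days after birth. The Dicer knockout, driven by Cre under the parvalbumin gene, is represented by 3 libraries, and wild type by another 3. Dicer is the enzyme that trims precursor hairpins to finished microRNAs, and this Cre acts in any cell that has expressed parvalbumin. The labels do not say whether the wild-type animals carried Cre or a floxed Dicer allele, nor how many animals each library holds. The p-values therefore speak of the spread among these samples alone. That spread includes a difference between animals, since replicate 3 differed in sex from the others, and the rest of it may be technical.

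Voltage-gated potassium channels are built from 4 subunits around a common pore. Kv3 channels open only at strong depolarization and close quickly, which keeps action potentials short and lets neurons fire at high rates; they are known from parvalbumin interneurons of the cortex and from auditory brainstem neurons. Kv2 channels carry the slower delayed rectifier current of many cell bodies. Silent subunits form no working channel alone, but join Kv2 subunits and alter the gating of the mixed channel. Parvalbumin-positive cells of the ganglion are mainly proprioceptors, the large sensory neurons that report muscle length and tension.

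Dicer1 was at 24.0, 20.8 and 21.8 TPM (a transcript level scaled by length and by the library's total) in the knockout libraries, against 36.7, 26.0 and 48.7 TPM in wild type, a difference limma did not call (log2 -0.68, SE 0.22, adjusted p = 0.104). A level over the whole gene says nothing of any single exon removed by Cre. Replicate 3 differed in sex from the others in both genotypes: Ddx3y, on the Y chromosome, was at 32.7 TPM in the knockout and 33.3 TPM in the wild-type library of that number and at 0.02 TPM or less elsewhere, and Xist reached 22.2 TPM or more only elsewhere. Each library had 13237 to 13960 rows at 1 TPM or above. The labelled cell type was checked against its markers: all 6 proprioceptor markers were above 0 in every library, summing to 797 to 981 TPM in knockout and 1511 to 1651 TPM in wild-type libraries, and 4 of them fell by limma (Pvalb, Runx3, Etv1 and Spp1, adjusted p = 0.0452, 0.0169, 0.0153 and 0.00197). Over the alternatives the adjusted p reached 0.185, 0.0962 and 0.0752 for Pvalb, Runx3 and Etv1, which ended those calls, and 0.0224 for Spp1. Nociceptor markers summed to 166 to 209 TPM in knockout and 76.1 to 272 TPM in wild-type libraries, with Trpv1, Scn10a, Mrgprd, Nppb and Trpa1 at 0 in at least 1 library. By limma 0 of the 4 tested were called, and 3 had an unadjusted p below 0.05. Those 3, Scn10a, Scn11a and P2rx3, were higher in knockout libraries, P2rx3 with overlap. Scn10a was at 13.4 to 17.1 TPM in knockout and 0 to 7.44 TPM in wild-type libraries. Scn11a was at 9.63 to 11.0 TPM in knockout and 1.71 to 8.37 TPM in wild-type libraries (limma adjusted p = 0.0917, or 0.0143 to 0.313 over the alternatives). Calca, which held most of the sum, overlapped. Satellite glia markers, 12 of 12 above 0 in every library, summed to 1793 to 2197 TPM in knockout and 2095 to 3119 TPM in wild-type libraries, and 2 of them fell by limma (Fabp7 and Gja1, adjusted p = 0.0412 and 0.0408, up to 0.130 and 0.179 over the alternatives). S100b held the largest part of that sum, at 1220 to 1354 TPM in knockout and 1247 to 1317 TPM in wild-type libraries, and Glul was higher in every knockout library without being called (212 to 245 TPM, against 102 to 199 TPM in wild type, limma adjusted p = 0.105, or 0.0419 to 0.231 over the alternatives). By unadjusted limma p, 6 of the 12 glia markers were below 0.05, with Fabp7, Gja1, Apoe, Kcnj10 and Ptprz1 lower and Glul higher. Schwann cell markers summed to 1039 to 1391 TPM in knockout and 448 to 527 TPM in wild-type libraries, nearly all of it Pmp22, which rose (limma adjusted p = 0.00212), with Prx, Mag and Egr2 at 0 in at least 1 library. Macrophage markers summed to 8.76 TPM or less and endothelial markers to 24.2 TPM or less. Pan-neuronal markers summed to 51458.5 to 53425.2 TPM in knockout and 55891.5 to 68557.1 TPM in wild-type libraries. Of these 10 markers only Rbfox3 passed limma, higher in knockout libraries (adjusted p = 0.0496, up to 0.153 over the alternatives). At an unadjusted limma p below 0.05 were 4 of the 10, Nefm and Nefh lower and Rbfox3 and Syt1 higher. Values of Rbfox3, Nefm and Nefh did not overlap between the genotypes, and those of Syt1 did. The part of these marker levels in the subunit values was not tested. In such bulk samples, fewer cells of a type and less RNA per cell cannot be told apart.

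Over all rows, limma on log2(TPM + 1) called 693 of 13787 (5.03%) at an adjusted p below 0.05, 256 higher (1.86%) and 437 lower (3.17%) in knockout libraries. The higher calls were 36.9% of the total, and 49.3% with median-of-ratios rescaling (375 higher and 385 lower). Of the 8 subunit genes, 6 had the mean of 1 TPM needed to enter. Their log2 differences and SE are taken from this fit, without its test. The knockout and wild-type values did not overlap for 5 of the 6, with Kcns3 higher and Kcnc1, Kcnc4, Kcnb2 and Kcns1 lower in knockout libraries, against 28.9% of all tested rows (11.8% higher and 17.1% lower in knockout libraries). Since the genes were picked with this contrast known, nothing is read from that count.

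**Figure D1:**
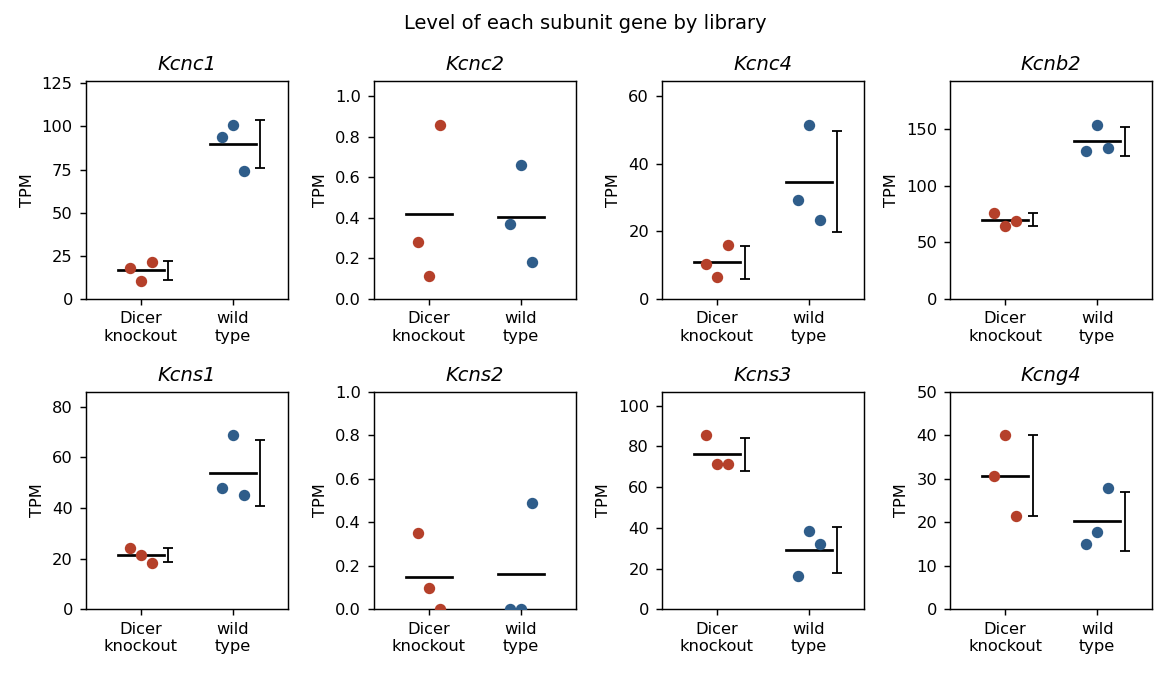
Level of each subunit gene in TPM (vertical axes, each from 0) in the 3 Dicer knockout (left) and 3 wild-type (right) libraries. Points are libraries in the order of replicates 1 to 3, horizontal lines are group means, and error bars are SD, drawn for the 6 genes with a mean of at least 1 TPM; Kcnc1, Kcnc4, Kcnb2 and Kcns1 sit lower and Kcns3 higher in every knockout library than in any wild-type library.

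Kcnc1, which encodes Kv3.1, had the largest difference of the set. Its level was 18.0, 10.3 and 21.1 TPM in the knockout libraries, against 93.6, 101 and 74.4 TPM in the wild-type libraries. The highest knockout value lay far below the lowest wild-type value, and the groups did not overlap. The means were 16.5 ± 5.54 TPM in knockout and 89.7 ± 13.8 TPM in wild type (SD, n = 3 each), a 5.45-fold lower level, with a log2 difference of -2.42 (SE 0.25). The gene lies on chromosome 7, from 46396497 to 46438704 on the plus strand (GRCm38), and, as for the other 7 genes, no exon of another annotated gene overlaps its exons.

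Kcnc4 encodes Kv3.4, a Kv3 subunit that inactivates quickly. It was at 10.2, 6.32 and 15.95 TPM in the knockout libraries, against 29.3, 51.7 and 23.3 TPM in the wild-type libraries. Wild-type replicate 2 stood well above its group, and knockout replicate 3 came closest to the wild-type values without reaching them. The means were 10.8 ± 4.85 TPM in knockout and 34.7 ± 14.9 TPM in wild type (SD, n = 3 each), 3.21-fold lower, with a log2 difference of -1.60 (SE 0.35; chromosome 3, 107438303 to 107459552). Kcnc2, which encodes Kv3.2, stayed below 1 TPM throughout. It was at 0.28, 0.11 and 0.86 TPM in the knockout libraries, against 0.37, 0.66 and 0.18 TPM in wild type (chromosome 10, 112271121 to 112467024). At such levels no difference could be told, and the depth of the libraries is not known from TPM.

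Summed over Kcnc1, Kcnc2 and Kcnc4, the level was 28.5, 16.8 and 37.9 TPM in the knockout libraries, against 123, 153 and 97.9 TPM in the wild-type libraries. The highest knockout sum lay well below the lowest wild-type sum. Kcnc1 was lower relative to Kcnc4 as well. The ratio of Kcnc1 to Kcnc4 TPM was 1.77, 1.63 and 1.32 in the knockout libraries and 3.198, 1.96 and 3.19 in the wild-type libraries, with no overlap, though wild-type replicate 2 came near the knockout values. Such a ratio within a library does not depend on how libraries are scaled. Kcnc1 made up 60.2 ± 4.01% of the sum in knockout and 72.6 ± 5.82% in wild-type libraries, and Kcnc4 made up 38.5 ± 3.23% in knockout and 27.1 ± 5.71% in wild-type libraries (SD, n = 3 each).

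**Figure D2:**
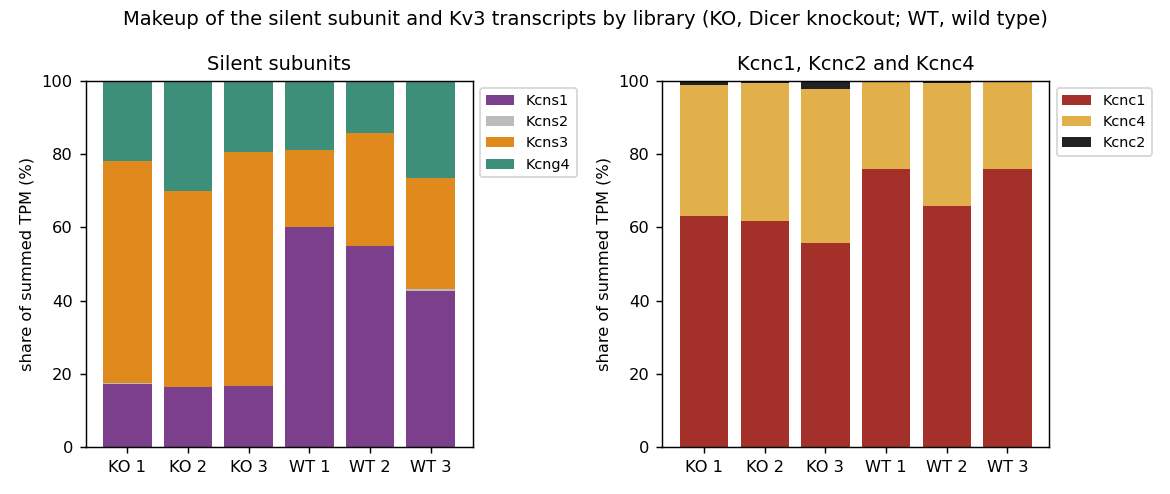
Share of the summed TPM (%) held by each silent subunit gene (left) and by Kcnc1, Kcnc2 and Kcnc4 (right), in the 3 Dicer knockout (KO) and 3 wild-type (WT) libraries. Kcns1 holds 16.3% to 17.2% of the silent total in knockout libraries and 42.7% to 60.2% in wild-type libraries, and Kcnc1 holds 55.6% to 63.2% of the sum at right in knockout and 65.9% to 76.0% in wild-type libraries.

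Kcnb2, which encodes Kv2.2, was the steadiest of the set between replicates. It was at 76.0, 64.7 and 69.1 TPM in the knockout libraries, against 131, 154 and 133 TPM in the wild-type libraries. The groups lay clearly apart, with each knockout value close to the others. The means were 70.0 ± 5.71 TPM in knockout and 139.5 ± 12.8 TPM in wild type (SD, n = 3 each), 1.99-fold lower, with a log2 difference of -0.98 (SE 0.12; chromosome 1, 15287254 to 15723750).

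Proteins that work with Kv2 channels showed no call. Amigo1, which encodes an adhesion protein that binds Kv2 channels, was at 69.3, 69.7 and 56.3 TPM in the knockout libraries, against 71.6, 74.5 and 66.3 TPM in the wild-type libraries (log2 difference -0.12, 95% interval -0.42 to 0.17, limma adjusted p = 0.606). The ratio of Kcnb2 to Amigo1 was 1.10, 0.929 and 1.23 in the knockout libraries and 1.83, 2.07 and 2.01 in the wild-type libraries, so the channel gene was lower relative to its partner in every knockout library. Vapa and Vapb encode proteins of the endoplasmic reticulum that Kv2 channels tether to the cell membrane. They averaged 167 ± 12.3 and 49.7 ± 0.75 TPM in knockout and 168 ± 12.9 and 55.0 ± 3.46 TPM in wild-type libraries (SD, n = 3 each; log2 differences -0.01 and -0.14, limma adjusted p = 0.973 and 0.508). Amigo3 and Amigo2, relatives of Amigo1, differed by -0.21 and 0.40 (limma adjusted p = 0.355 and 0.329).

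The silent genes went in opposite directions. Kcns1 encodes Kv9.1, a silent subunit known from large myelinated sensory neurons in rodents. It was at 24.1, 21.6 and 18.5 TPM in the knockout libraries, against 47.8, 68.7 and 45.0 TPM in the wild-type libraries. Each wild-type value was well above every knockout value, and wild-type replicate 2 was the highest. The means were 21.4 ± 2.82 TPM in knockout and 53.8 ± 12.9 TPM in wild type (SD, n = 3 each), 2.52-fold lower, with a log2 difference of -1.27 (SE 0.19; chromosome 2, 164163619 to 164171113).

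Kcns3 encodes Kv9.3, another silent partner of Kv2 channels, which is also expressed in parvalbumin interneurons of the cortex. It was at 85.4, 71.1 and 71.5 TPM in the knockout libraries, against 16.6, 38.7 and 32.0 TPM in the wild-type libraries. Every knockout value was above every wild-type value, and wild-type replicate 1 was the lowest of the 6. The means were 76.0 ± 8.15 TPM in knockout and 29.1 ± 11.3 TPM in wild type (SD, n = 3 each), 2.61-fold higher, with a log2 difference of 1.43 (SE 0.27; chromosome 12, 11090202 to 11151056). Without wild-type replicate 1 the log2 difference was 1.08, the lowest over the alternatives.

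The order of these silent genes was the reverse in the 2 genotypes. The ratio of Kcns3 to Kcns1 was 3.54, 3.29 and 3.87 in the knockout libraries and 0.347, 0.563 and 0.711 in the wild-type libraries. Kcns3 was therefore the higher of the pair in every knockout library and the lower in every wild-type library. Relative to Kcnb2, whose product both can join, Kcns3 was at 1.12, 1.10 and 1.03 in the knockout libraries and at 0.127, 0.251 and 0.240 in the wild-type libraries. Kcns1 relative to Kcnb2 was at 0.317, 0.334 and 0.267 in the knockout libraries and at 0.365, 0.445 and 0.337 in the wild-type libraries, values that nearly touched.

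**Figure D3:**
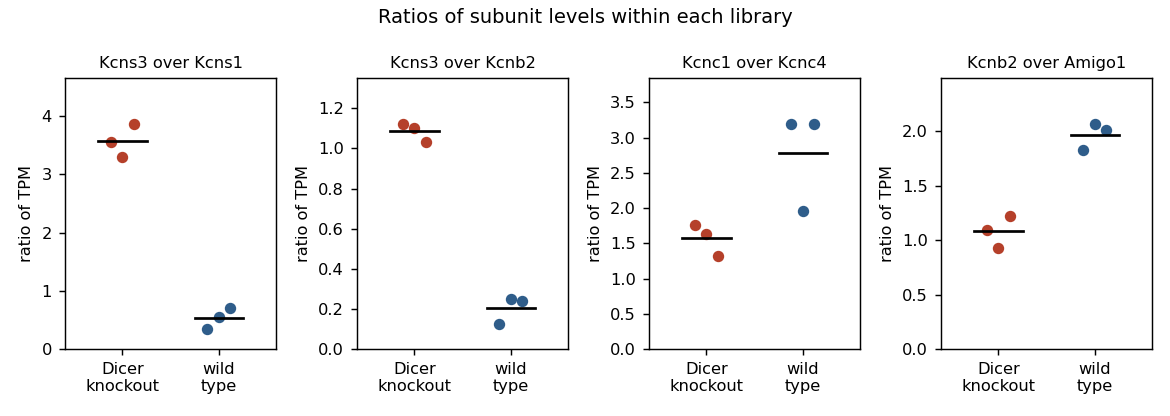
Ratios of TPM between pairs of genes within each library (vertical axes, each from 0) in Dicer knockout (left) and wild-type (right) libraries; points are libraries and lines are group means. The ratio of Kcns3 to Kcns1 lies between 3.29 and 3.87 in knockout and between 0.347 and 0.711 in wild-type libraries, and the other 3 ratios do not overlap between the genotypes either.

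Kcng4, which encodes the silent subunit Kv6.4, did not separate the genotypes. It was at 30.6, 40.0 and 21.5 TPM in the knockout libraries, against 15.01, 17.8 and 27.96 TPM in the wild-type libraries. Replicate 3 ran against the others, with the lowest knockout value below the highest wild-type value. The means were 30.7 ± 9.27 TPM in knockout and 20.2 ± 6.82 TPM in wild type (SD, n = 3 each), with a log2 difference of 0.58 (SE 0.28; chromosome 8, 119623854 to 119635680). Kcns2, which encodes Kv9.2, was at 0.35, 0.10 and 0 TPM in the knockout libraries, against 0, 0 and 0.49 TPM in wild type (chromosome 15, 34837355 to 34843407), too low for a difference to be told.

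Summed over Kcns1, Kcns2, Kcns3 and Kcng4, the silent transcripts came to 141, 133 and 111 TPM in the knockout libraries and 79.5, 125 and 105 TPM in the wild-type libraries. The totals overlapped, unlike those of Kcnc1, Kcnc2 and Kcnc4. What differed was the makeup. Kcns1 held 16.7 ± 0.45% of the total in knockout and 52.6 ± 8.99% in wild-type libraries, and Kcns3 held 59.5 ± 5.42% in knockout and 27.4 ± 5.62% in wild-type libraries (SD, n = 3 each). With Kcnb2 lower, the silent total relative to Kcnb2 was 1.84 ± 0.22 in knockout and 0.736 ± 0.113 in wild-type libraries (SD, n = 3 each).

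Of the other silent subunit genes, none passed limma. Kcng3, which encodes Kv6.3, was at 5.96, 6.84 and 6.28 TPM in the knockout libraries, against 3.91, 3.24 and 4.95 TPM in the wild-type libraries (log2 difference 0.56, 95% interval 0.00 to 1.12, unadjusted p = 0.0492, limma adjusted p = 0.208). All 3 knockout values were above the wild-type values. Kcnv1, which encodes Kv8.1, was between 0.32 and 2.61 TPM in knockout and between 0.33 and 2.45 TPM in wild-type libraries (log2 difference 0.23, limma adjusted p = 0.835). Kcng1, Kcng2, Kcnf1 and Kcnv2 were at 1 TPM or less in every library and were not tested. Thus 0 of 2 tested genes of this list were called (1 at an unadjusted p below 0.05), with a median log2 difference of 0.39 against -0.05 over all tested rows.

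By level, the order in knockout libraries was Kcns3, Kcnb2, Kcng4, Kcns1, Kcnc1, Kcnc4, Kcnc2 and Kcns2, and in wild-type libraries Kcnb2, Kcnc1, Kcns1, Kcnc4, Kcns3, Kcng4, Kcnc2 and Kcns2. In knockout libraries the ranges of Kcns3 and Kcnb2 overlapped, as did those of Kcng4 and Kcns1, Kcns1 and Kcnc1, and Kcnc1 and Kcnc4. In wild-type libraries Kcnb2, Kcnc1 and Kcns1 stood apart from each other, while the neighbours from Kcns1 to Kcng4 overlapped in turn. Among 37 Kv alpha subunit genes ranked within each library by TPM, Kcnc1 was at places 13 to 16 in knockout and 5 to 7 in wild-type libraries. Kcns3 was at place 5 in every knockout library and at places 10 to 14 in wild-type libraries, and Kcnb2 was at places 6 to 7 in knockout libraries and at place 4 in every wild-type library.

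Listed genes of the Kv1, Kv4, Kv7 and Kv10 to Kv12 families gave no call by limma. Of 23 such genes 17 were tested, 0 passed and 9 had an unadjusted p below 0.05, with a median log2 difference of 0.24 and a range from -0.83 to 0.94. The genotypes did not overlap in 9 of the 17, 6 higher and 3 lower in knockout libraries, against 28.9% of all tested rows. The list was chosen with earlier results of these data known, so nothing is read from these counts. Kcna1, which encodes the axonal subunit Kv1.1 and ranked highest of the 37 in every library, averaged 605 ± 37.5 TPM in knockout and 578 ± 71.8 TPM in wild-type libraries (SD, n = 3 each; log2 difference 0.07, limma adjusted p = 0.765). Kcna2, which encodes its partner Kv1.2, averaged 228 ± 34.9 TPM in knockout and 314 ± 16.9 TPM in wild-type libraries (-0.47, 95% interval -0.77 to -0.17, limma adjusted p = 0.0743). Kcnh7, of the Erg family, averaged 236 ± 24.5 TPM in knockout and 179 ± 35.2 TPM in wild-type libraries (0.40, limma adjusted p = 0.152). Kcnh5, which encodes Kv10.2 and is named after its values were seen, was called higher with rows of at least 5 TPM or with median-of-ratios rescaling (adjusted p = 0.0487 and 0.0416) and not otherwise (adjusted p = 0.0604 with all settings as planned, 0.0416 to 0.187 over the alternatives).

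**Figure D4:**
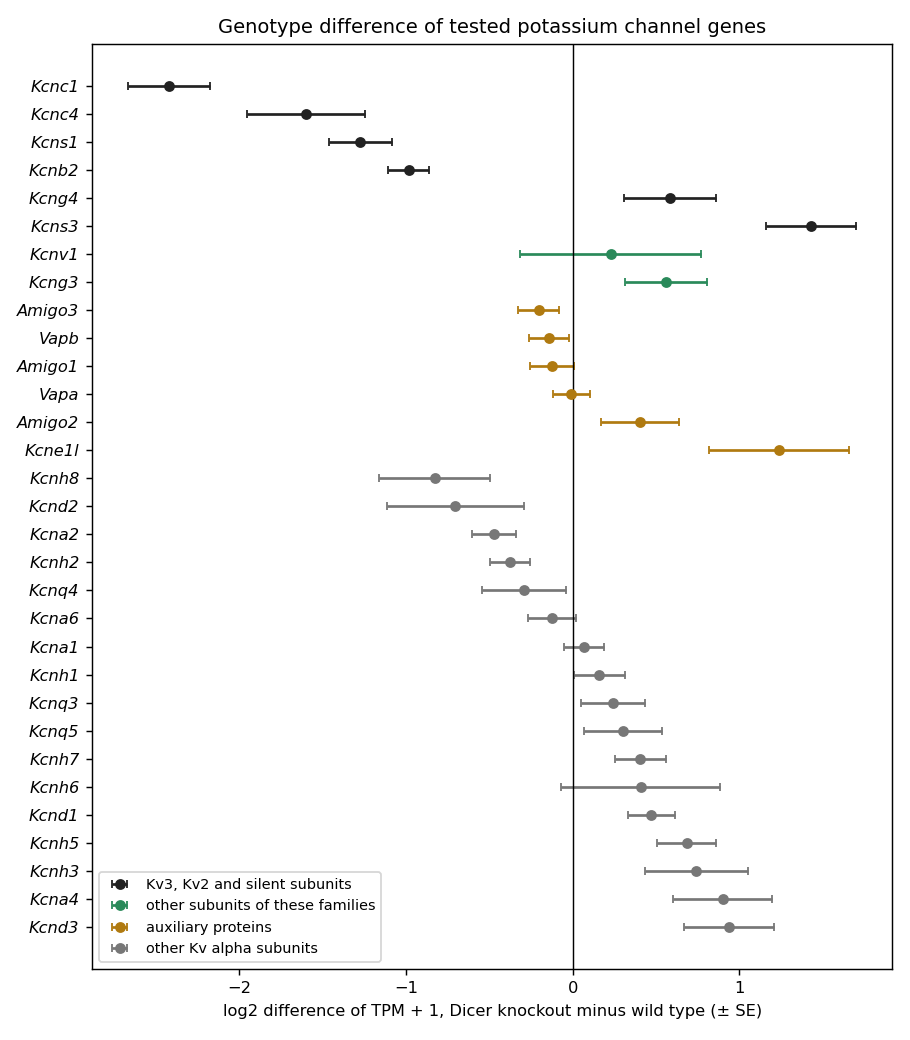
Log2 difference of TPM + 1, Dicer knockout minus wild type, with its SE (n = 3 libraries each), for every tested gene of the 4 gene groups named in the legend. Kcnc1, Kcnc4, Kcns1 and Kcnb2 lie to the left at -2.42 to -0.98 and Kcns3 to the right at 1.43. The other Kv alpha subunits lie between -0.83 (Kcnh8) and 0.94 (Kcnd3), at either end close in size to Kcnb2.

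Small auxiliary subunits of the Kcne family, which can join Kv channels, were scarce. Kcne1l was at 2.31, 3.35 and 3.42 TPM in the knockout libraries, against 0.94, 0 and 1.51 TPM in the wild-type libraries, with no overlap and no call (log2 difference 1.24, unadjusted p = 0.0163, limma adjusted p = 0.117). Kcne1, Kcne2 and Kcne3 stayed below 1 TPM in every library, and Kcne4 was listed at 0 to 0.20 TPM in knockout and 0 to 2.51 TPM in wild-type libraries. Over the auxiliary list, 0 of 6 tested genes were called by limma (1 at an unadjusted p below 0.05), and the median was -0.07.

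The replicates of a genotype did not differ alike in all of these genes. Among the knockout libraries, replicate 3 had the highest Kcnc1 and Kcnc4 and the lowest Kcng4, and it also had the highest Pvalb, at 13.98 TPM against 4.02 and 3.69 TPM. Taking each library's deviation from its genotype mean in log2 TPM + 1, Kcnc1 and Kcnc4 deviated together (r = 0.88 over 6 libraries) and Kcnc1 and Kcng4 in opposite ways (r = -0.85), as a description. The satellite glia sum of knockout replicate 3, 2197 TPM, was the highest of the knockout libraries, and it is the knockout library with Y-linked transcripts. The part of these in the values of replicate 3 was not tested. With the satellite glia level as an added term, the log2 differences were -2.31 for Kcnc1, -1.67 for Kcnc4, -1.03 for Kcnb2, -1.54 for Kcns1, 1.33 for Kcns3 and 0.57 for Kcng4. In the 4 libraries with Xist alone, they were -2.74, -2.14, -1.01, -1.29, 1.58 and 1.06 in the same gene order. Between the replicate 3 libraries, 1 of each genotype, they were -1.77, -0.52, -0.94, -1.24, 1.14 and -0.36, so that Kcnc4 differed least of the lower genes there and Kcng4 was lower in knockout. These pairs of libraries give no replicate error.

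**Figure D5:**
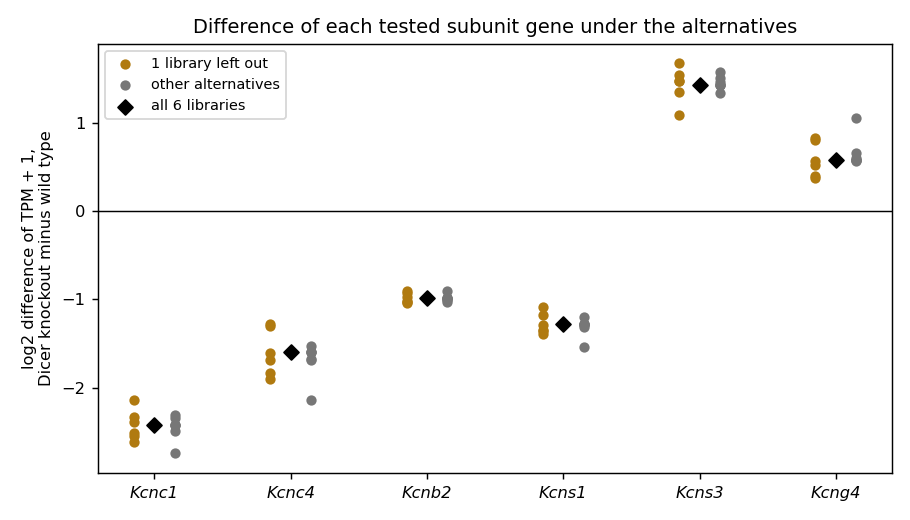
Log2 difference of TPM + 1, Dicer knockout minus wild type, for the 6 tested subunit genes with all 6 libraries (black diamonds), with 1 library left out (left points) and under the other alternatives (right points). All 6 genes kept their direction in every setting drawn, and Kcnc1 stayed between -2.74 and -2.14. The groups of all but Kcng4 did not overlap, so leaving out libraries could not change the direction of those genes.

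Rows whose levels followed these genes most closely over the 6 libraries were sought among 9306 rows with a symbol and a mean of at least 5 TPM. Pearson's r of log2 levels rests here on 6 libraries of 2 genotypes, so rows that differ in the same direction can score high. It does not depend on the size of the difference. Kcnc1 was most like Clec2l (r = 0.999), Sik3 (0.997) and Klhl7 (0.996). Kcnc4 was most like Fam50a, Dcaf7 and Fam103a1 (0.998, 0.992 and 0.992), and Kcnb2 most like Fam20c, D7Ertd443e and Msantd4 (0.998, 0.998 and 0.997). Kcns1 was most like Tceal3, Mknk1 and St6galnac5 (0.998, 0.996 and 0.995), Kcns3 most like Gpr153, Mms19 and Aldh1l1 (0.996, 0.987 and 0.983), and Kcng4 most like Tatdn3, Cd96 and Cant1 (0.992, 0.983 and 0.979). The r of deviations from the genotype means was 0.983 for Clec2l with Kcnc1. Over all the rows named it ran from 0.919 (Aldh1l1 with Kcns3) to 0.996 (Gpr153 with Kcns3). The deviations are part of the r by which the rows were picked, so high values are in part built in. Klhl7 averaged 38.5 TPM in knockout and 48.8 TPM in wild-type libraries, and Gpr153 averaged 23.3 and 18.7 TPM. These differences were smaller than those of Kcnc1 and Kcns3. St6galnac5, at 1.08 and 9.69 TPM, had a larger one than Kcns1.

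Because Dicer makes mature microRNAs, the longest annotated 3′ untranslated region of each gene (GENCODE vM21, GRCm38) was searched for 7-base matches to the seeds (bases 2 to 8) of 13 microRNA families known from neurons. Mature miR-124-3p was missing from the sequences at hand and was not searched. The microRNAs themselves were not measured here. The mature sequences of 3 of them, from RefSeq (GRCm38.p6), are shown because they are the ones with a match in both Kcnc1 and Kcnc4, the genes with the largest differences; capitals mark the seed.
mmu-let-7a-5p: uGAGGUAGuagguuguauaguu
mmu-miR-125b-5p: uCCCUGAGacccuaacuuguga
mmu-miR-128-3p: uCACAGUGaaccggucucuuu
A let-7 match was present in Kcnc1, Kcnc2 and Kcnc4, 3 of the 8 genes, and in 10.7% of the 11525 tested genes with such a region. A miR-125b match was present in Kcnc1, Kcnc4 and Kcns3 (15.9% of the tested genes) and a miR-128 match in 6 of the 8 (23.3%), all but Kcns3 and Kcng4. Matches to miR-26a, miR-29a and miR-181a were also present in 3 of the 8 genes each (11.8%, 16% and 19.4% of the tested genes), Kcnb2 and Kcnc2 among them each time.

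The match of Kcns3, whose level was higher in knockout libraries, and the let-7 matches of Kcnc1 and Kcnc4, whose levels were lower, are shown with 8 bases on either side; capitals mark the match, and each is written 5′ to 3′ on the gene's strand.
Kcns3, miR-125b, chr12:11091109-11091131, minus: atttaattCTCAGGGtgtacctt
Kcnc1, let-7, chr7:46429404-46429426, plus: cccatagtCTACCTCtacccatg
Kcnc4, let-7, chr3:107438787-107438809, minus: ttggggttCTACCTCccacccca
The untranslated region of Kcns3 was 1019 bases long and held 1 match to 1 of the 13 families, and that of Kcns1 was 929 bases long and held 1 match, to miR-128. Kcnc1, with 5043 bases, held 6 matches to 4 families, and Kcnb2, with 12121 bases, held 10 matches to 7 families, against a median length of 1261 bases over the tested genes. Kcng4 held 4 matches to 3 families in 1795 bases, 2 of them to miR-183, a microRNA of sensory neurons. The regions of Kcnc2 and Kcns2 were 3953 and 3481 bases long, and the shares over the tested genes were not matched for length. Matches were held both by genes lower in knockout libraries and by Kcns3, which was higher. The part of these matches in the levels was not tested. A match describes letters and is not a shown target.

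The 250 bases before a start listed in RefSeq's promoter table were found for 6 of the 8 genes (10 windows, GRCm38.p6). A listed start can lie inside the gene as annotated above. The Kcnc4 window and the second Kcns3 window lay wholly inside it, and the first Kcns3 window mostly so. Windows are shown for Kcnc1, with the largest lower level, and for Kcns1 and Kcns3 (2 windows), whose levels went in opposite directions. Capitals mark GC boxes (GGGCGG) on either strand.
Kcnc1, chr7:46396218-46396467, plus: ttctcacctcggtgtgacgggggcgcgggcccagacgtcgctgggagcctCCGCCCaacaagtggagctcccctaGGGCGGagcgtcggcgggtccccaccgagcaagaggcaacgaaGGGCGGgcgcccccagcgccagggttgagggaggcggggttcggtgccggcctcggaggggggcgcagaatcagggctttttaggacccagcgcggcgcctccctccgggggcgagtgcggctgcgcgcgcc
Kcns1, chr2:164171114-164171363, minus: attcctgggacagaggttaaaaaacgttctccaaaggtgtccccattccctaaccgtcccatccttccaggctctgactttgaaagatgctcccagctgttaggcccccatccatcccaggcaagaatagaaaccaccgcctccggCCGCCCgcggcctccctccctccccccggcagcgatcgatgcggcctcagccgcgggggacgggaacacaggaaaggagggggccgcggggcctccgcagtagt
Kcns3, chr12:11150843-11151092, minus: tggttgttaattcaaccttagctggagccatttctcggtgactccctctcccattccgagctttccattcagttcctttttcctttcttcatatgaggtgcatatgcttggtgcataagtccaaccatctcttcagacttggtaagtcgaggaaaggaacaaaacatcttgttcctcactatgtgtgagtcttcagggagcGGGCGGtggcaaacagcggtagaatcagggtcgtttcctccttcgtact
Kcns3, chr12:11150374-11150623, minus: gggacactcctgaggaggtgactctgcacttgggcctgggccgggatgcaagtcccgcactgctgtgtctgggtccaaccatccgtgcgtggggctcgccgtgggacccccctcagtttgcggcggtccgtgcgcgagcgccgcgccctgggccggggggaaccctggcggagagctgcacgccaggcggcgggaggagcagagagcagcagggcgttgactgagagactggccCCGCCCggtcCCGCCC
The GC box, a site of Sp family factors, was present in 6 of the 10 windows and in 32.7% of 32851 promoter windows. It was in the windows of Kcnc1, Kcnc4 and Kcns1, in both windows of Kcns3 and in 1 of the 4 windows of Kcnc2. The other windows of Kcnc2 overlap each other, so the 10 windows are not all separate sequences. The Kcnc1 window held 3 GC boxes and was 74.4% G and C, and the Kcns1 window held 1 and was 63.2% G and C. The Kcns3 windows held 1 and 2 and were 47.2% and 72.8% G and C, against a median of 52.4% over all windows. The RUNX site TGTGGT was present in 1 of the 10 windows, that of Kcnc4 (14% of all windows). The cAMP response element TGACGTCA, the estrogen-related receptor half-site AAGGTCA, the ETS site CCGGAAG and the TATA box TATAAA were in no window of these genes (1.55%, 4.08%, 6.91% and 12.4% of all windows). Both strands were searched, and no motif contains another.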

How the data were processed

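The authors deposited 1 table of TPM values, 1 column per library with replicates not pooled. The submitters' processing notes name RSEM 1.2.7, Bowtie2, cutadapt and build mm10; no source used here gives the annotation. Per the labels' protocols, RNA was extracted with PicoPure and amplified with Ovation kits, a step that can add noise for rare transcripts. TPM scales each library to 1000000, so depth is unknown and no counting interval was made. Reads that match several transcripts are split among them by RSEM's estimate.

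Rows averaging 1 TPM or more (13787 of 31469) were tested on the scale of log2(TPM + 1) in R 4.3.3. The test was limma 3.58.1, two-sided, with genotype as its only term, variance trended on level, and Benjamini-Hochberg adjustment. Fold changes on this scale understate changes of low rows. With 3 libraries a side the smallest two-sided exact permutation p is 0.1, and no such test was used. On simulated data for 13787 rows (5 runs, 200 changed rows each), limma recovered 53.4% of 2-fold and 89% of 4-fold changes. False calls averaged 11.4 per run. The simulated noise was normal and independent between rows, with changes added on the log2(TPM + 1) scale and no sex or glia difference. Recovery in the real libraries may therefore differ. The genes and lists were chosen with earlier results of these data known; microRNA families, promoter motifs and ratios were chosen after the values were seen. Named genes were the 8 subunit genes, their listed relatives and auxiliary proteins, the called and the 3 most abundant other Kv genes, and the 3 rows most like each subunit gene. The alternatives were another pseudocount, other filters, rescaling, a replicate block, a satellite glia term, leaving out each library, and the 4 libraries with Xist. Some potassium channel genes are not reported here.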

Additional observations from a re-analysis of the deposited data

Results flagged for a closer look

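The genotype difference of Kcng4 ran in opposite directions in the libraries with Xist and in those with Y-linked transcripts. In knockout replicates 1 and 2 it was at 30.6 and 40.0 TPM, against 15.01 and 17.8 TPM in wild-type replicates 1 and 2, a log2 difference of 1.06. In knockout replicate 3 it was at 21.5 TPM, against 27.96 TPM in wild-type replicate 3, a log2 difference of -0.36. The second minus the first was -1.42, given as a value without a test, since the gene was chosen on these libraries. The same opposite directions were seen for Amigo2 (-0.79) and Kcna1 (-0.40). Kcnh6, at 0.50 to 3.12 TPM over the libraries, and Vapa changed sign the other way. Their log2 differences were -0.11 each in the libraries with Xist and 1.44 and 0.18 in replicate 3, gaps of 1.55 and 0.29. With a single library of each genotype in replicate 3, the spread in the limma fit of this difference comes from the other 4 libraries alone. Kcnc4 kept its direction, at -2.14 in the libraries with Xist and -0.52 in replicate 3, a larger gap of 1.62, also without a test. Of 13787 rows, 0 passed limma for this difference and 424 had an unadjusted p below 0.05.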

How the results depend on the processing

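The direction of the log2 difference of all 6 tested subunit genes held under every alternative run over several libraries of each genotype. The groups of all but Kcng4 did not overlap, so leaving out libraries could not change the direction of those genes. Between the replicate 3 libraries alone Kcng4 was at -0.36. Over all rows, the counts of higher and lower calls were 130 and 248 with no filter, 76 and 101 with the satellite glia term, and 65 and 139 in the 4 libraries with Xist. Leaving out 1 library gave 48 to 348 rows higher and 116 to 487 lower, lowest without knockout replicate 1 and highest without wild-type replicate 1. With the replicate block, 188 rows were higher and 341 lower. Correlations of the deviations were 0.0492, 0.0659 and 0.0382 between same-numbered libraries of the genotypes, and -0.0976 to 0.0705 between differently numbered ones. Such small values cannot tell whether the numbers pair the samples, and the sex of the libraries matched by number. Median-of-ratios rescaling gave 375 higher and 385 lower. The cause of these changes was not tested. Kcnh5 was called only with the 5 TPM filter and with rescaling. The log2 ratio of the summed Kv3 levels stayed between -2.61 and -1.91, and that of the silent sum between 0.15 and 0.47. Kcnc2 and Kcns2 are too low in these libraries for any statement. The test of sex by genotype was added after the data were seen.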
